A study of Mus musculus with 8 samples.

Results

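Hgf, Met, Igf1, Igf2, Igf1r, Igfbp3, Igfbp5, Pdgfa, Pdgfra and Pdgfrb are growth factors, receptors and binding proteins that can carry signals between dental mesenchyme and epithelium. All probe sets that the platform annotation names with exactly 1 of these 10 genes were taken, which gave 27 of the 45101 probe sets on the array and 10 of the 18193 genes with a single-gene probe set. Each gene had between 2 and 5 probe sets. The genes were chosen by name with the signals of these 8 arrays and their differences between the 4 injections already known. Their values are therefore a description, with no p-value over the list.

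The RNA came from mandibular molar tooth germs of ICR mouse embryos, an outbred stock, and each of the 4 groups had 2 arrays, labelled as biological replicates. The mothers received 1 intraperitoneal injection at embryonic day 14, and the germs were dissected 24 hours later. The agents were 5E1, an IgG1 antibody against the Shh protein (10 mg/kg), 40-1a, an IgG1 antibody against β-galactosidase (10 mg/kg), cyclopamine, an antagonist of the Hedgehog signal relay Smo (10 mg/kg), and PBS (1 ml). The whole germ, with epithelium and mesenchyme together, was used. The labels do not state how many embryos or litters made up a replicate, so the spread between replicates may be partly technical. Nor do they state the vehicle of cyclopamine, so PBS may not match it in the comparison of cyclopamine with PBS.

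HGF is secreted mainly by mesenchymal cells and acts on neighbouring epithelium through the receptor tyrosine kinase Met. IGF1 and IGF2 act through the IGF1 receptor, and secreted IGF binding proteins such as IGFBP3 and IGFBP5 hold them in the extracellular space. PDGF-A is made largely by epithelia and acts on the receptor PDGFRα of the mesenchyme beneath, while PDGFRβ is known for its part in pericytes and other perivascular mesenchyme. In the tooth germ such factors belong to the exchange between epithelium and mesenchyme that shapes the crown.

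The stretch of 250 bases before each listed transcription start shows how differently these genes begin. Windows at RefSeq start sites of build GRCm38.p6 were used for 9 of the 10 genes, with 14 start sites. No window of Pdgfrb was used, so the counts below do not cover that gene. Of the 10 genes, Hgf and Pdgfra had the lowest fitted differences for 5E1 minus 40-1a and for cyclopamine minus PBS. The probe sets of Pdgfa went apart. The windows shown are therefore those of the ligand and receptor pairs Hgf with Met and Pdgfa with Pdgfra. Each reads 5′ to 3′ towards the start, and capitals mark the GC box GGGCGG on either strand.
Hgf, downstream start, chr5:16553651-16553900, plus strand: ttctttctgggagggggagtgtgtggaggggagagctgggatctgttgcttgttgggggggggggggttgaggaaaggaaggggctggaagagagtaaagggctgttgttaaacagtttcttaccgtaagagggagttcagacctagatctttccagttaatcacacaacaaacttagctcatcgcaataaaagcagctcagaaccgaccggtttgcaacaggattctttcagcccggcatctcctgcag
Met, chr6:17463707-17463956, plus strand: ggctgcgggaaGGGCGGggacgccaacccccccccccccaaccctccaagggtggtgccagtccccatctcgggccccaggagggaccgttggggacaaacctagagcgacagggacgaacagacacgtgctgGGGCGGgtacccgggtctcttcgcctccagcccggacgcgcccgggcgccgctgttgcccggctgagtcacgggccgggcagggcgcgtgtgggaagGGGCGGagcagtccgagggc
Pdgfa, upstream start, chr5:138994945-138995194, minus strand: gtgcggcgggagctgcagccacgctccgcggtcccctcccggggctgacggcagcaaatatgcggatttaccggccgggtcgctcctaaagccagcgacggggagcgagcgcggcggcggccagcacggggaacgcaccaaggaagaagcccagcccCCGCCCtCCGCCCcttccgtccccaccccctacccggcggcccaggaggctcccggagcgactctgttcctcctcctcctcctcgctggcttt
Pdgfa, downstream start, chr5:138994282-138994531, minus strand: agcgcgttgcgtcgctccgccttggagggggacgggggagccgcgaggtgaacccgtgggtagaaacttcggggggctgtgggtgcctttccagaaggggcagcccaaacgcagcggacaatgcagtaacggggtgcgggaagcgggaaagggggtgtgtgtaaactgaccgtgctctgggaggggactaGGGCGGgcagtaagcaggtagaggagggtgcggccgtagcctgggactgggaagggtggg
Pdgfra, chr5:75152001-75152250, plus strand: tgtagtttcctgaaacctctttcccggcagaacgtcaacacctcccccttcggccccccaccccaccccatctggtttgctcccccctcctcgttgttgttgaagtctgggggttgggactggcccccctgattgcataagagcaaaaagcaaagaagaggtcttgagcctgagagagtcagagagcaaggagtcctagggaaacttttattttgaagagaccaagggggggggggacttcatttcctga
The GC box was found in 6 of the 14 windows, those of Met, Igf1r, both Pdgfa starts and 2 of the Igf2 starts, and in 32.7% of all 32851 windows of this length. Neither the Hgf nor the Pdgfra windows held it, and their GC content of 50.8% and 51.2% (Hgf) and 54.4% (Pdgfra) lay near the median of all windows, 52.4%, against 74.0% for Met and 72.4% and 66.4% for Pdgfa. The GLI consensus GACCACCCA was sought on both strands, since GLI proteins carry the Hedgehog signal to DNA. It was in 0 of the 14 windows and in 0.225% of all windows, and the TATA box TATAAA was in 0 of the 14 and in 12.4% of all windows. These counts say only that the letters are not in these windows.

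Each array held markers of both layers of the germ, but in unequal amounts. The mesenchymal factor Msx1 had signals from 1426 to 6746 and the epithelial keratin gene Krt14 from 10085 to 19729 over the 8 arrays. The summed signal of 22 dental mesenchyme markers was 52643, 69949 and 69836 on replicate 2 of 5E1, 40-1a and cyclopamine, and 100092 to 115878 on the other 5 arrays. By hierarchical clustering over all genes tested, those 3 low arrays formed cluster 2, replicate 1 of 5E1, 40-1a and PBS cluster 1, and cyclopamine replicate 1 with PBS replicate 2 cluster 3. From cluster 1 to cluster 2, 21 of the 22 mesenchyme markers were lower, as were all 10 endothelial and all 9 macrophage markers, and all 19 dental epithelium and all 20 skeletal muscle markers were higher. In such tissue samples fewer cells of a type and less RNA per cell cannot be told apart. The injections were checked on Ptch1, a direct Hedgehog target, whose signal was 2122 and 1552 after 5E1 and 5793 to 11322 on the other 6 arrays. The 2 cyclopamine arrays had Ptch1 signals of 9683 and 5793, against 9611 and 8474 after PBS. Gli1, the second gene of the check, was at 240 and 348 after 5E1 and at 1070 to 2157 on the other 6 arrays. Its signals were 2157 and 1193 after cyclopamine, against 1070 and 2143 after PBS. The check thus separated 5E1 from the rest but not cyclopamine from PBS.

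None of the 10 genes passed the test across all genes in any comparison. Limma called 0 of 13008 genes (0%) at an adjusted p of 0.05 in each of 6 comparisons, with 88 to 205 genes at an unadjusted p under 0.05. The smallest adjusted p of a member was 0.983, for cyclopamine against PBS. Without overlap between groups, 1 of the 10 was lower and 0 higher after 5E1 than after 40-1a, where 10.8% and 8.66% of all genes were. After cyclopamine 2 were lower and 2 higher than after PBS, where 14.4% and 17.8% of all genes were. Medians over the members lay near those of all genes, at -0.11 against -0.01 for 5E1 minus 40-1a and at 0.08 against 0.02 for cyclopamine minus PBS, on the log2 scale. Between 2 groups of 2 arrays an exact two-sided permutation test cannot go below p = 0.333. The genes are therefore given by their values, with the standard error (SE) and 95% interval of the fit, and differences are on the scale log2(signal + 9), which understates changes of weak signals.

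**Figure D1:**
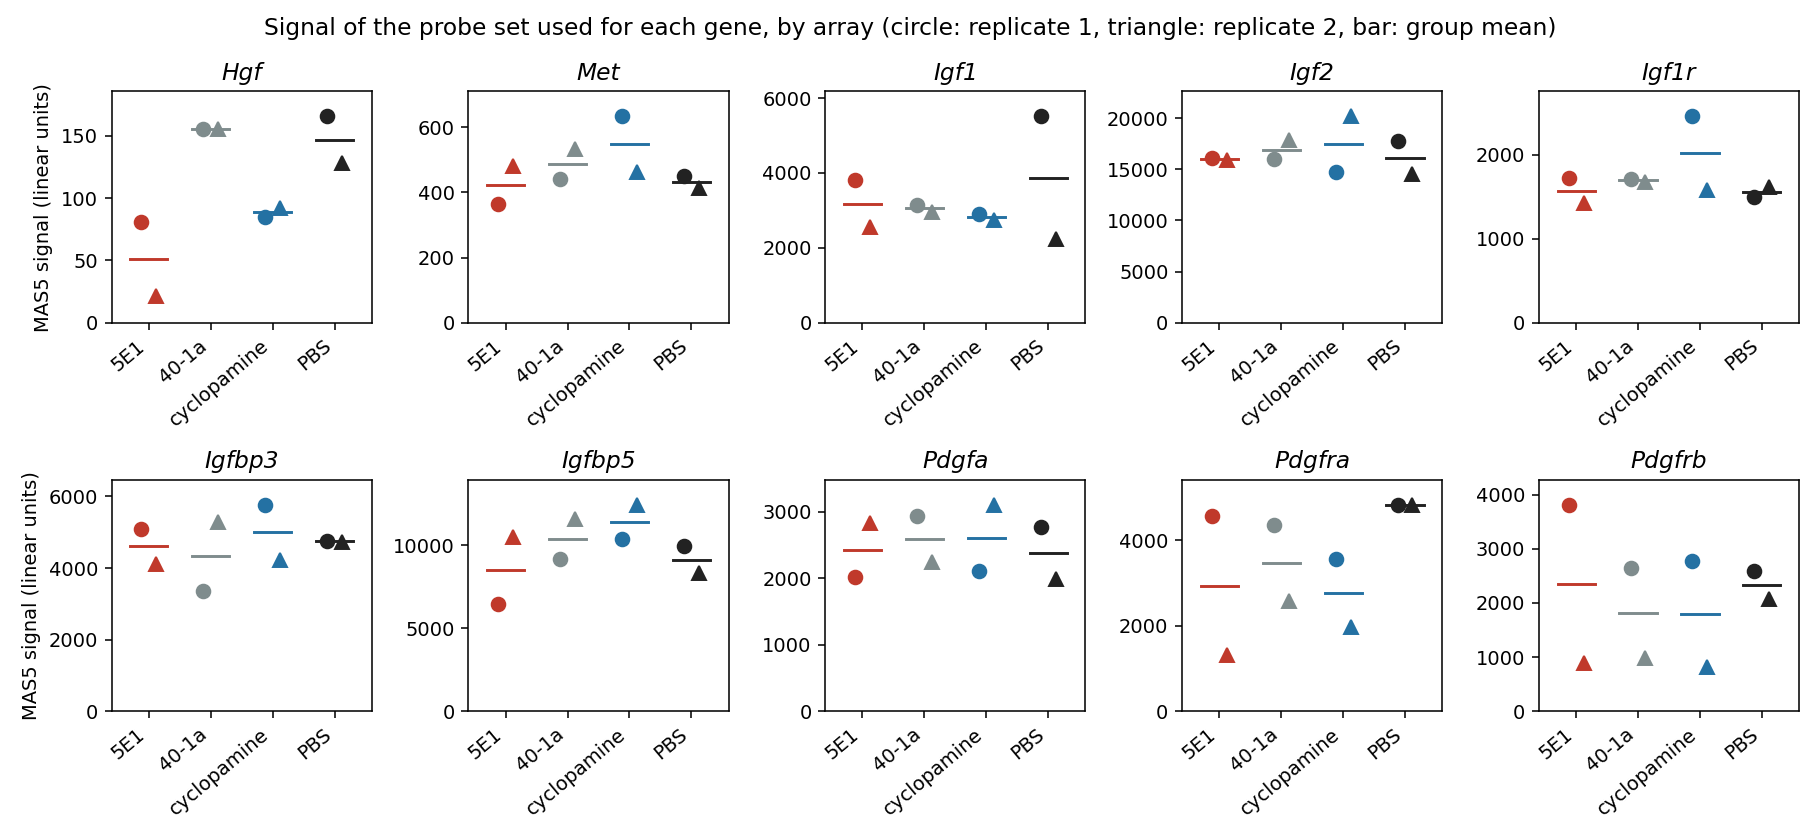
MAS5 signal in linear units of the probe set used for each of the 10 genes, with circles for replicate 1, triangles for replicate 2 and bars for the mean of the 2 arrays of a group. Hgf lies lower on the 4 arrays after 5E1 or cyclopamine (21.7 to 92.0) than on the 4 control arrays (128 to 166), whereas Pdgfra and Pdgfrb are lowest on replicate 2 of 5E1, 40-1a and cyclopamine.

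Hgf, the ligand of Met, was the 1 member whose fitted probe set was lower on every 5E1 or cyclopamine array than on every control array. The check of the injections did not separate cyclopamine from PBS. Arrays are therefore grouped here by the agent injected, not by a measured block. On its probe set with the highest mean, 1451866_a_at, the signal was 80.5 and 21.7 after 5E1, 155 and 156 after 40-1a, 85.0 and 92.0 after cyclopamine, and 166 and 128 after PBS. The highest of the 4 arrays with a blocking agent was 92.0 and the lowest of the 4 control arrays 128. Of the 13008 genes, 0.753% were lower without overlap in this way and 0.615% higher, and 0 of the other 9 members did either. The difference was -1.65 for 5E1 minus 40-1a (SE 0.49, 95% interval -2.79 to -0.51, n = 2 and 2), which is 3.14-fold lower. For cyclopamine minus PBS it was -0.67 (SE 0.49, interval -1.80 to 0.47). For both agents together against both controls it was -1.16 (SE 0.35), and none of these passed the test over all genes.

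The size of the Hgf difference rested in part on 1 array and on the probe set. Without 5E1 replicate 2, whose 21.7 lay under the filter level of 60.3, the difference between 5E1 and 40-1a was -0.88, and without 5E1 replicate 1 it was -2.42. The other 2 Hgf probe sets overlapped between the antibody groups. Probe set 1425379_at had signals of 119 and 74.9 after 5E1 against 118 and 78.9 after 40-1a, a difference of -0.03, with 55.3 and 58.6 after cyclopamine against 115 and 108 after PBS, a difference of -0.87. Probe set 1442884_at, whose mean lay under the filter level, gave 92.2 and 15.9, 111 and 55.3, 21.6 and 37.7, and 129 and 50.7 in the same order of groups. All 3 probe sets were thus lower on both cyclopamine arrays than on both PBS arrays, and 1 of 3 was lower without overlap after 5E1 than after 40-1a. Over all single-gene probe sets above the filter level, 17.7% were lower without overlap for cyclopamine minus PBS and 11.2% for 5E1 minus 40-1a.

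Mesenchyme markers and Hgf shared a direction in some comparisons only. For 40-1a minus PBS, 20 of the 22 dental mesenchyme markers were lower (median -0.37), while Hgf was at 0.09 (SE 0.49). Of the 22 markers, 17 were lower after 5E1 than after 40-1a (median -0.22) and 20 were lower after cyclopamine than after PBS (median -0.40), with sums of 115878 and 52643 after 5E1, 113921 and 69949 after 40-1a, 100092 and 69836 after cyclopamine, and 110609 and 102466 after PBS. On the scale relative to their mean on each array, a step added after the values were seen, the Hgf difference was -1.34 for 5E1 minus 40-1a, -0.23 for cyclopamine minus PBS and -0.78 for both agents. With the array cluster as a block it was -1.65, -0.33 and -0.99. Between 5E1 and 40-1a Hgf differed by -0.88 within the replicate 1 pair, with marker sums of 115878 and 113921, and by -2.42 within the replicate 2 pair, with 52643 and 69949. The part of mesenchyme content in the Hgf values was not tested beyond these.

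Met, the receptor of HGF on epithelial cells, did not follow its ligand. The signal of probe set 1434447_at was 366 and 480.1 after 5E1, 439.7 and 534 after 40-1a, 633 and 462 after cyclopamine, and 449 and 415 after PBS. The antibody groups overlapped, with a difference of -0.21 (SE 0.24), while both cyclopamine arrays were above both PBS arrays, with 0.32 (SE 0.24). Its other probe set, 1422990_at, had the opposite signs, 0.11 and -0.64, the latter with 38.9 and 165 after cyclopamine against 147 and 121 after PBS. The Met values therefore gave no direction that both probe sets shared.

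Of 17 other genes listed for HGF activation and Met signalling, 14 were tested and 0 passed in any of the 6 comparisons. The list and its counts include Mst1 and Mst1r, an HGF-like ligand and its own receptor. For 5E1 minus 40-1a, 7 were higher and 7 lower, with a median of 0.01 against -0.01 for all genes, and 1 was higher and 0 lower without overlap, where 8.66% and 10.8% of all genes were. For cyclopamine minus PBS, 11 were higher and 3 lower, with a median of 0.33 against 0.02 for all genes. In that comparison 7 of the 14 were higher without overlap, where 17.8% of all genes were. Among them, St14, which encodes the membrane protease matriptase, an activator of pro-HGF, differed by 0.65 (SE 0.47), and Spint2, which encodes an inhibitor of such proteases, by 0.34 (SE 0.27). Itgb4, an epithelial integrin subunit, had the highest value of the list at 0.70 (SE 0.68), with signals of 878 and 827 after cyclopamine against 403 and 672 after PBS. Of the 19 dental epithelium markers, 17 were higher in the same comparison (median 0.32), with sums of 90533 and 118296 after cyclopamine against 72846 and 85091 after PBS, and their part in the list's values was not tested. Plaur, the urokinase receptor, was the lowest of the list there, at -0.24 (SE 0.36). Mst1, which encodes the HGF-like ligand of another receptor, had the highest value for 5E1 minus 40-1a, 1.23 (SE 0.83), with 70.7 and 164 after 5E1 and with 9.85 and 124 after 40-1a. The Met adaptor gene Gab1 had the lowest, -0.41 (SE 0.57), with 2121 and 964 after 5E1 and 3028 and 1201 after 40-1a.

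**Figure D2:**
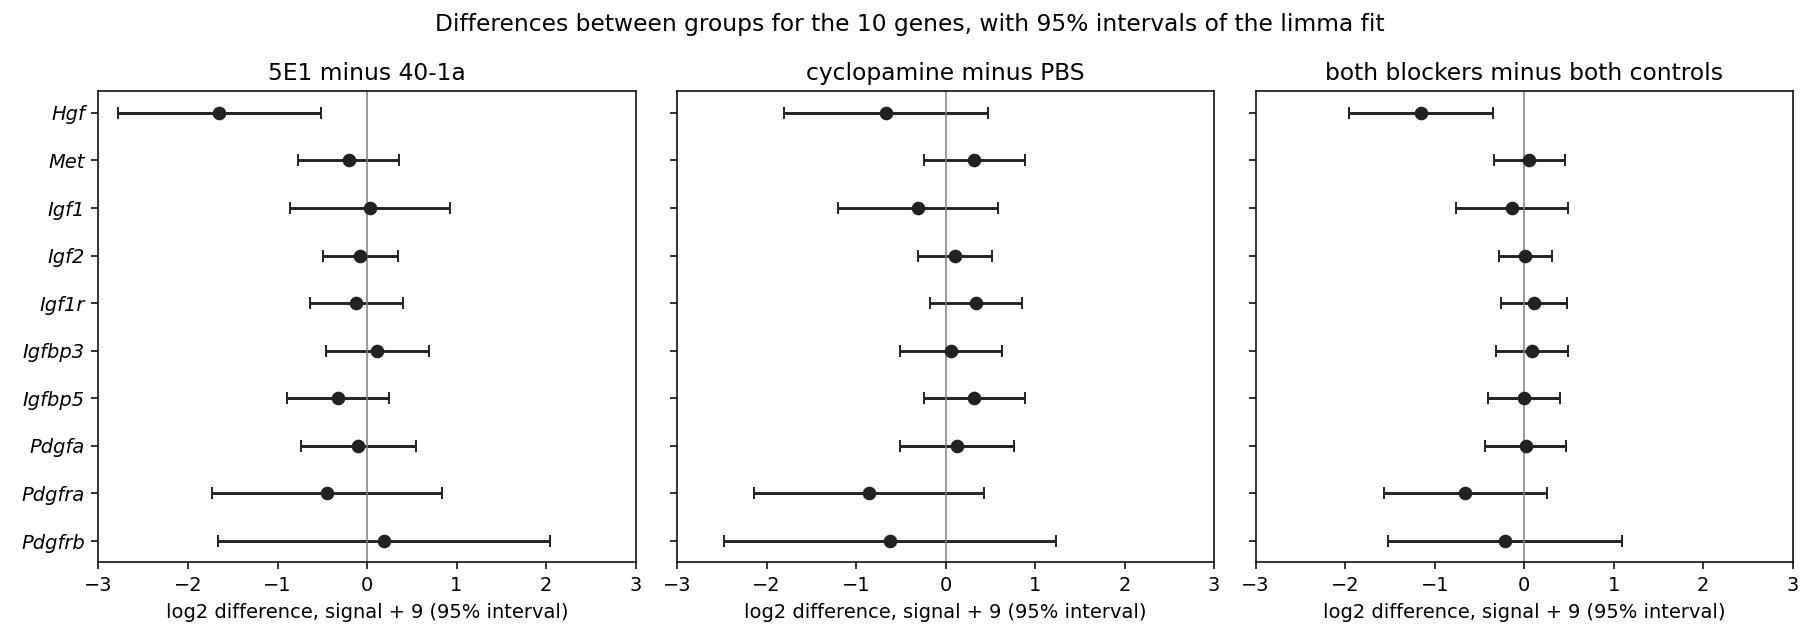
Differences on the log2(signal + 9) scale for the 10 genes in 3 comparisons, with points for the fitted difference and bars for its 95% interval (2 arrays a group, 4 a side in the right panel). The interval of Hgf lies below 0 for 5E1 minus 40-1a and for both blockers, before any adjustment over genes, and those of the other 9 genes include 0 in all 3 panels.

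Igf1, the growth factor of postnatal growth that is also made by embryonic mesenchyme, varied most between the 2 PBS arrays. The signal of probe set 1437401_at was 3804 and 2558 after 5E1, 3148 and 2960.0 after 40-1a, 2911 and 2752 after cyclopamine, and 5514 and 2222 after PBS. The highest and the lowest of the 8 arrays were thus both PBS arrays, and every other group lay between them. Only 1.18% of all genes differed as far between the 2 PBS arrays as Igf1, which was 2.48-fold apart. The difference was 0.03 (SE 0.38) for 5E1 minus 40-1a and -0.31 (SE 0.38) for cyclopamine minus PBS, and the second was 0.35 without PBS replicate 1 and -0.96 without PBS replicate 2.

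All 4 Igf1 probe sets had PBS replicate 1 as their highest array, at 1162, 5018, 5514 and 972. They parted on cyclopamine replicate 1, where 1419519_at and 1452014_a_at were at 236 and 208, their lowest of all arrays, against 582 and 545 on cyclopamine replicate 2. On the other pair, 1434413_at and 1437401_at, cyclopamine replicate 1 stood at 1969 and 2911 beside 2747 and 2752 on replicate 2. Between the array clusters all 4 were lower in cluster 2 than in cluster 1 without overlap, by 0.52 to 0.70 on the log2 scale.

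Igf2, an imprinted growth factor of the embryo, was among the steadiest of the genes on its strong probe set. Signals of 1448152_at, in the top percent of all probe sets at the 99.4th percentile, were 16094 and 15914 after 5E1, 15973 and 17836 after 40-1a, 14752 and 20197 after cyclopamine, and 17759 and 14521 after PBS. Each group overlapped the others it was compared with, and the difference was -0.08 (SE 0.18, interval -0.49 to 0.34) for 5E1 minus 40-1a and 0.10 (SE 0.18, interval -0.31 to 0.52) for cyclopamine minus PBS. Its weaker probe set, 1415931_at, behaved otherwise, with 386 and 137, 286 and 127, 56.9 and 178, and 579 and 212 in the same order. There both cyclopamine arrays were under both PBS arrays (-1.70), and PBS replicate 1 was again the highest array, as for Igf1. With the mean of both probe sets the cyclopamine difference turned from 0.10 to -0.80.

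**Figure D3:**
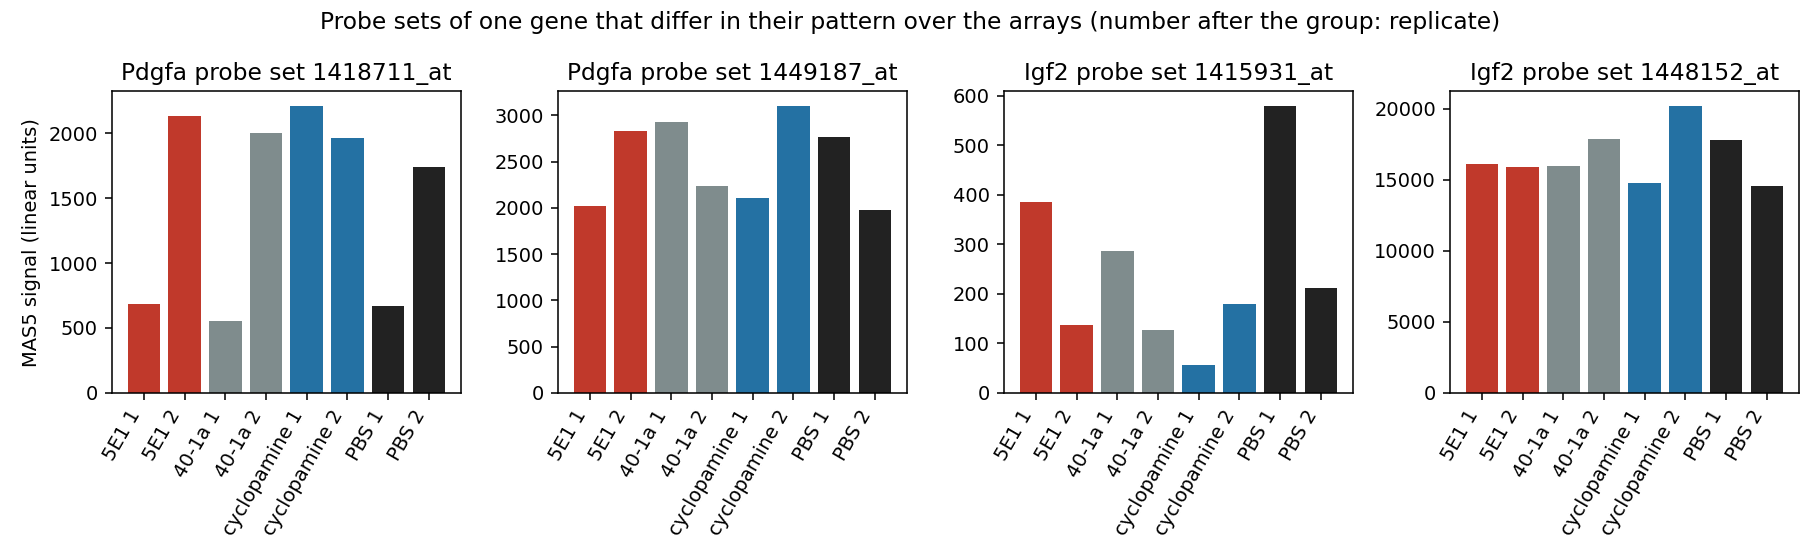
MAS5 signal in linear units on each of the 8 arrays (bars, coloured by group, with the replicate number after the group) for the 2 probe sets of Pdgfa and the 2 of Igf2. Pdgfa 1418711_at is at 551 to 685 on replicate 1 of 5E1, 40-1a and PBS and at 1739 to 2211 on the other 5 arrays, a split that 1449187_at does not show, and Igf2 1415931_at varies from 56.9 to 579 while 1448152_at stays between 14521 and 20197.

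Igf1r, the receptor kinase for both IGFs, had the most probe sets, and they did not move together. On 1452982_at, the strongest, the signal was 1719 and 1423 after 5E1, 1718 and 1680.3 after 40-1a, 2461 and 1579 after cyclopamine, and 1502 and 1613 after PBS. Cyclopamine replicate 1 stood above the other 7 arrays, the groups overlapped in both main comparisons, and the differences were -0.12 (SE 0.22) for 5E1 minus 40-1a and 0.34 (SE 0.22) for cyclopamine minus PBS. The latter was 0.02 without cyclopamine replicate 1 and 0.66 without replicate 2. On 1426565_at the signs were turned without overlap, at 1136 and 775 after 5E1 against 709 and 707 after 40-1a (0.40), and at 622 and 685 after cyclopamine against 822 and 971 after PBS (-0.45). The remaining 3 probe sets overlapped in both comparisons, with differences from -0.50 to 0.09.

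Igfbp3, whose protein carries IGFs and limits their access to the receptor, overlapped with its controls on both probe sets. It had signals of 5096 and 4109 after 5E1, 3366 and 5296 after 40-1a, 5768 and 4236 after cyclopamine, and 4759.6 and 4739.6 after PBS. The 5E1 arrays lay between the 2 of 40-1a and the PBS arrays between the 2 of cyclopamine, with differences of 0.12 (SE 0.25) and 0.06 (SE 0.25). Its other probe set, 1458268_s_at, gave -0.11 and -0.19 with overlap.

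Igfbp5, another IGF carrier that binds to extracellular matrix, was lowest on 5E1 replicate 1. The signal of 1452114_s_at was 6477 and 10462 after 5E1, 9151 and 11593 after 40-1a, 10367 and 12428 after cyclopamine, and 9945 and 8295 after PBS. After 5E1 the arrays overlapped those after 40-1a, at -0.32 (SE 0.24), and both cyclopamine arrays lay above both PBS arrays, at 0.32 (SE 0.24). On 1422313_a_at the cyclopamine difference was -0.65, with 343 on replicate 1 and 2290.4 on replicate 2 against 1412 and 1392 after PBS. Both Igfbp5 probe sets were higher in cluster 2 than in cluster 1 without overlap, by 0.45 and 0.85, in the direction of the epithelial and muscle markers.

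On its fitted probe set, the antibody effect on Igfbp5 minus the cyclopamine effect was -0.64 (SE 0.35, interval -1.45 to 0.16), with values of opposite sign in the 2 comparisons. On 1422313_a_at both comparisons were negative, at -0.29 and -0.65, and the value was 0.36. For Met the fitted value was -0.53 (SE 0.35), for Hgf -0.98 (SE 0.69) and for Pdgfrb 0.81 (SE 1.13). These signs turned as well, to 0.11 for Met and 0.11 for Hgf with the mean of probe sets. For Pdgfrb the value was -0.10 with the array cluster as a block. None of the 10 members passed this test of the difference over all genes.

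Of 24 other genes of the IGF system, 18 were tested and 0 passed in any comparison. For 5E1 minus 40-1a, 8 were higher and 10 lower (median -0.07 against -0.01 for all genes), with 2 higher and 2 lower without overlap, where 8.66% and 10.8% of all genes were. Irs4, an adaptor of the insulin and IGF receptors, was the lowest at -1.02 (SE 0.38), with 65.5 and 54.7 after 5E1, 156 and 109 after 40-1a, 134 and 69.3 after cyclopamine, and 164 and 135 after PBS. It was also lower after cyclopamine than after PBS, at -0.58 (SE 0.38), again without overlap but only by 134 against 135. Both agents together overlapped with both controls. The Irs4 signals were weak, and the 54.7 on 5E1 replicate 2 lay under the filter level of 60.3. Igf2r, the receptor that clears IGF2, had the highest difference, 0.31 (SE 0.28), with 1356 and 1057 after 5E1 against 1047 and 886 after 40-1a.

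For cyclopamine minus PBS, 12 of the 18 IGF system genes were higher and 6 lower (median 0.07 against 0.02), with 4 higher and 3 lower without overlap, where 17.8% and 14.4% of all genes were. Igf2bp1, an RNA-binding protein of embryonic tissue that binds Igf2 transcripts, was the highest, at 0.81 (SE 0.35), with 678 and 889 after cyclopamine and 398 and 482 after PBS. Pappa2, a protease that cuts IGF binding proteins, was the lowest, at -1.46 (SE 1.11). Its signal was 1236 and 196 after cyclopamine and 1395 and 1372 after PBS, and it was likewise low on replicate 2 of 5E1 (239.9) and of 40-1a (297), the other arrays with few mesenchyme markers.

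Pdgfa, the epithelial ligand of PDGFRα, gave different patterns on its 2 probe sets. On 1449187_at, the stronger one, the signal was 2023 and 2836 after 5E1, 2933 and 2241 after 40-1a, 2112 and 3104 after cyclopamine, and 2769 and 1980.4 after PBS, with overlap in both main comparisons and differences of -0.10 (SE 0.28) and 0.13 (SE 0.28). On 1418711_at it was 685 and 2133, 551 and 2005, 2211 and 1963, and 672 and 1739 in the same order. The 3 low arrays there were exactly those of cluster 1, and in cluster 2 the probe set was higher by 1.67 on the log2 scale. The 2 cyclopamine arrays were above both PBS arrays (0.94), while the antibody groups overlapped (0.20). Relative to the mean of the dental epithelium markers of each array, 1418711_at still spanned 1.74 on the log2 scale, against 1.99 before.

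Pdgfra, the receptor of PDGF-A and a marker of mesenchyme, was highest and closest between replicates after PBS. Signals of 1421917_at were 4571 and 1311 after 5E1, 4360.2 and 2582 after 40-1a, 3565 and 1973 after cyclopamine, and 4821 and 4832 after PBS. In each of the 3 injected groups other than PBS, replicate 2 was far below replicate 1, and all 6 of those arrays were below both PBS arrays. The 5E1 and 40-1a arrays overlapped, with a difference of -0.45 (SE 0.55, interval -1.74 to 0.83). Cyclopamine minus PBS was -0.86 (SE 0.55, interval -2.15 to 0.42), 1.82-fold lower without overlap.

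On its fitted probe set Pdgfra followed the mesenchyme markers of its array closely. Over the 8 arrays its log2 value spanned 1.87, and relative to the mean of the 22 markers it spanned 0.59. On that scale, added after the values were seen, the differences were -0.14 for 5E1 minus 40-1a, -0.42 for cyclopamine minus PBS, -0.35 for 5E1 minus PBS and -0.21 for 40-1a minus PBS, all nearer to 0 than the -0.45, -0.86, -0.98 and -0.52 of the deposited scale. With the array cluster as a block cyclopamine minus PBS was -0.27 (SE 0.24). The clusters were formed from the same signals, so this value is a description. Within the replicate 1 pair 5E1 and 40-1a differed by 0.07, and within the replicate 2 pair by -0.97. The part of mesenchyme content in the Pdgfra values was not tested beyond these. Without 5E1 replicate 2 the difference between the antibodies turned from -0.45 to 0.45, and it was -1.35 without 5E1 replicate 1, -0.08 without 40-1a replicate 1 and -0.83 without 40-1a replicate 2.

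The weaker Pdgfra probe sets shared this order in part. On 1421916_at the signals were 748 and 128, 809 and 284, 178 and 226, and 835 and 496, and on 1438946_at 209 and 9.07, 221 and 90.0, 163 and 80.5, and 219 and 146, for 5E1, 40-1a, cyclopamine and PBS. Replicate 2 of 5E1 was the lowest array on all 3 probe sets. On both weaker ones, however, PBS replicate 2 lay below replicate 1 of 5E1 and of 40-1a, and on 1421916_at cyclopamine replicate 1 was below replicate 2. All 3 had negative differences in both main comparisons, from -0.45 to -1.27 and from -0.60 to -1.64, with 2 of 3 lower without overlap after cyclopamine and 0 of 3 after 5E1, where 17.7% and 11.2% of all single-gene probe sets were.

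**Figure D4:**
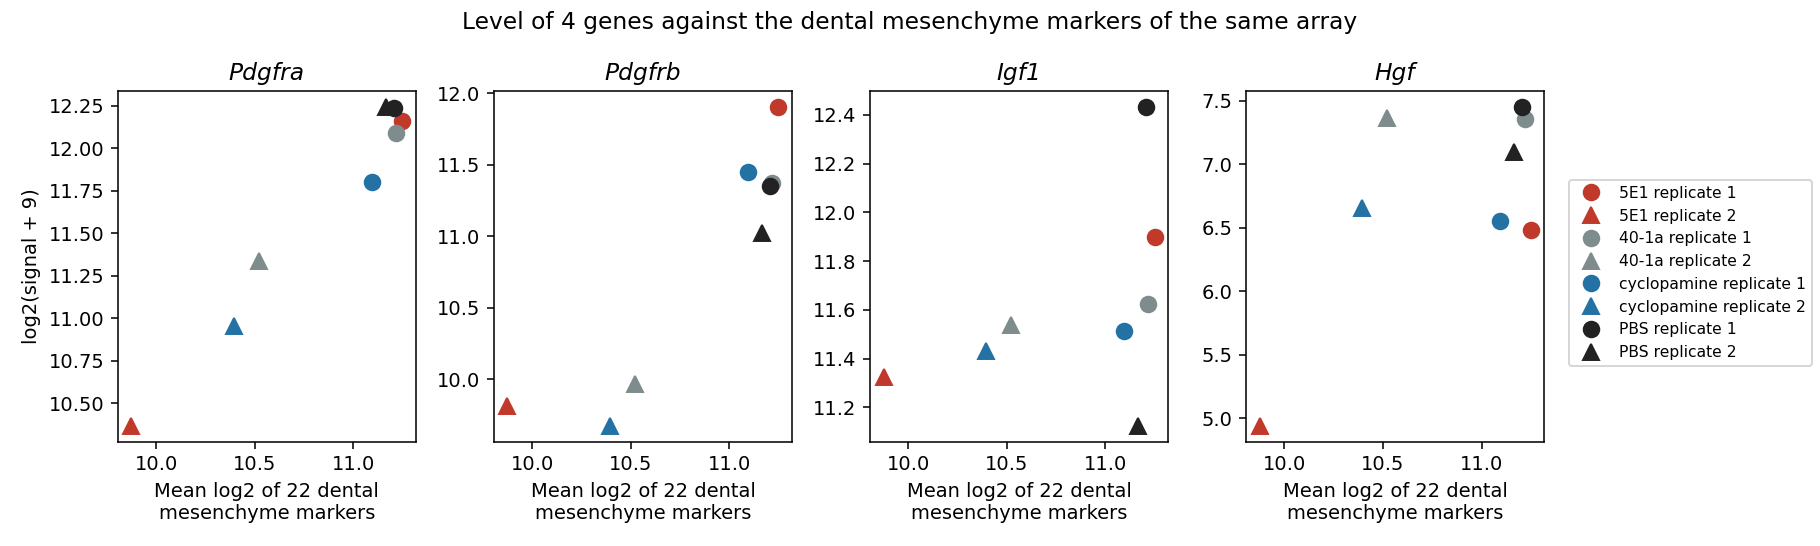
log2(signal + 9) of Pdgfra, Pdgfrb, Igf1 and Hgf (vertical axes) against the mean log2 value of 22 dental mesenchyme markers on the same array (horizontal axes), 1 point an array, coloured by group. The 3 arrays with the fewest markers, replicate 2 of 5E1, 40-1a and cyclopamine, are also the 3 lowest for Pdgfra and Pdgfrb, but not for Igf1 or Hgf.

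Pdgfrb, the other PDGF receptor gene, split the arrays still more sharply. The signal of 1436970_a_at was 3813 and 890.1 after 5E1, 2643 and 989 after 40-1a, 2782 and 807 after cyclopamine, and 2596 and 2067 after PBS. The 3 cluster 2 arrays stood at 807 to 989 and the other 5 at 2067 to 3813, and all group comparisons overlapped. Its 2 arrays were 4.25-fold apart after 5E1, 2.66-fold after 40-1a, 3.42-fold after cyclopamine and 1.25-fold after PBS, a distance that 0.684%, 3.16%, 0.930% and 38.6% of all genes reached in these groups. The differences were 0.19 (SE 0.80) for 5E1 minus 40-1a and -0.62 (SE 0.80) for cyclopamine minus PBS, and the second turned to 0.29 with the array cluster as a block. Leaving out 5E1 replicate 1 or 2 moved the first to -0.86 or 1.23.

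The pericyte markers were divided. The sum of 8 such markers ranged from 6765 to 10253, and 4 of the 8 were higher and 4 lower in cluster 2 than in cluster 1. Rgs5, at 347 to 741 on the cluster 2 arrays and 1502 to 2635 on the other 5, and Abcc9, at 167 to 283 and 349 to 578, had the same 3 lowest arrays as Pdgfrb. Kcnj8 was at 113 to 477 on the cluster 2 arrays and at 452 to 995 on the others. These 3 are among the 4 lower markers. Of the 4 higher ones, Notch3 was at 1490 to 1681 on the cluster 2 arrays and at 992 to 1500 on the other 5, with overlap. Anpep, also one of the higher markers, was at 163 to 227 on the cluster 2 arrays and at 46.6 to 161 on the others. The part of pericytes in the Pdgfrb values was not tested. The second probe set, 1417148_at, had 887 and 227, 448 and 334, 698 and 187, and 481 and 617 in the order of groups above, and was again lowest on the cluster 2 arrays. Relative to the mesenchyme markers Pdgfrb spanned 1.37 on the log2 scale, against 2.23 before.

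The other 12 genes of PDGF signalling were all tested, and 0 passed in any comparison. For 5E1 minus 40-1a, 6 were higher and 6 lower (median 0.00236 against -0.01 for all genes) with 0 of the 12 higher or lower without overlap, where 8.66% and 10.8% of all genes were. For cyclopamine minus PBS 6 were higher and 6 lower (median -0.01 against 0.02), with 1 higher and 2 lower without overlap, where 17.8% and 14.4% of all genes were. Pdgfc, a second PDGFRα ligand, had the highest value for 5E1 minus 40-1a, 0.22 (SE 0.19), and Pdgfb, the main PDGFRβ ligand, the lowest, -0.14 (SE 0.25). For cyclopamine minus PBS Pdap1, a protein that binds PDGF, was highest at 0.35 (SE 0.18), and Pdgfd, a PDGFRβ ligand, lowest at -0.79 (SE 0.50), with 45.0 and 130.0 after cyclopamine against 165 and 120.1 after PBS. Of 26 shared kinase genes downstream of these receptors, 19 were measured and tested and 0 passed. In cyclopamine minus PBS 15 of the 19 were higher (median 0.11 against 0.02 for all genes), where 53.1% of all genes were. Without overlap 4 were higher and 1 lower, where 17.8% and 14.4% of all genes were. Pik3cb, a catalytic subunit of PI3 kinase, was at 0.75 (SE 0.36) and Shc1, a receptor adaptor, at -0.33 (SE 0.16). In 5E1 minus 40-1a 8 of the 19 were higher (median -0.01 against -0.01 for all genes), where 46.7% of all genes were. Without overlap 0 were higher and 3 lower, where 8.66% and 10.8% of all genes were. Pik3cb had the opposite sign there, -0.56 (SE 0.36), and the regulatory subunit gene Pik3r1 was at 0.34 (SE 0.27). The Pik3cb signals were weak, at 41.7 to 114, and its 40-1a minus PBS difference was 0.90 (SE 0.36).

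Set against PBS, the antibody groups gave each member a value that shares the PBS arrays, so the 3 comparisons with PBS are not independent. Hgf was at -1.56 (SE 0.49) after 5E1 and at 0.09 (SE 0.49) after 40-1a. Pdgfra was at -0.98 (SE 0.55) and -0.52 (SE 0.55), in both cases without overlap. Of the 10 members, 2 were lower and 0 higher without overlap after 5E1, where 12.4% and 9.97% of all genes were. After 40-1a 1 was lower and 1, Igf1r, higher, where 10.8% and 9.71% of all genes were. Pdgfrb, at -0.33 and -0.52 (SE 0.80), overlapped with PBS in both. Igf1 was at -0.17 and -0.20 (SE 0.38), and the other 6 members lay between -0.14 and 0.03 after 5E1 and between -0.17 and 0.18 after 40-1a.

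**Figure D5:**
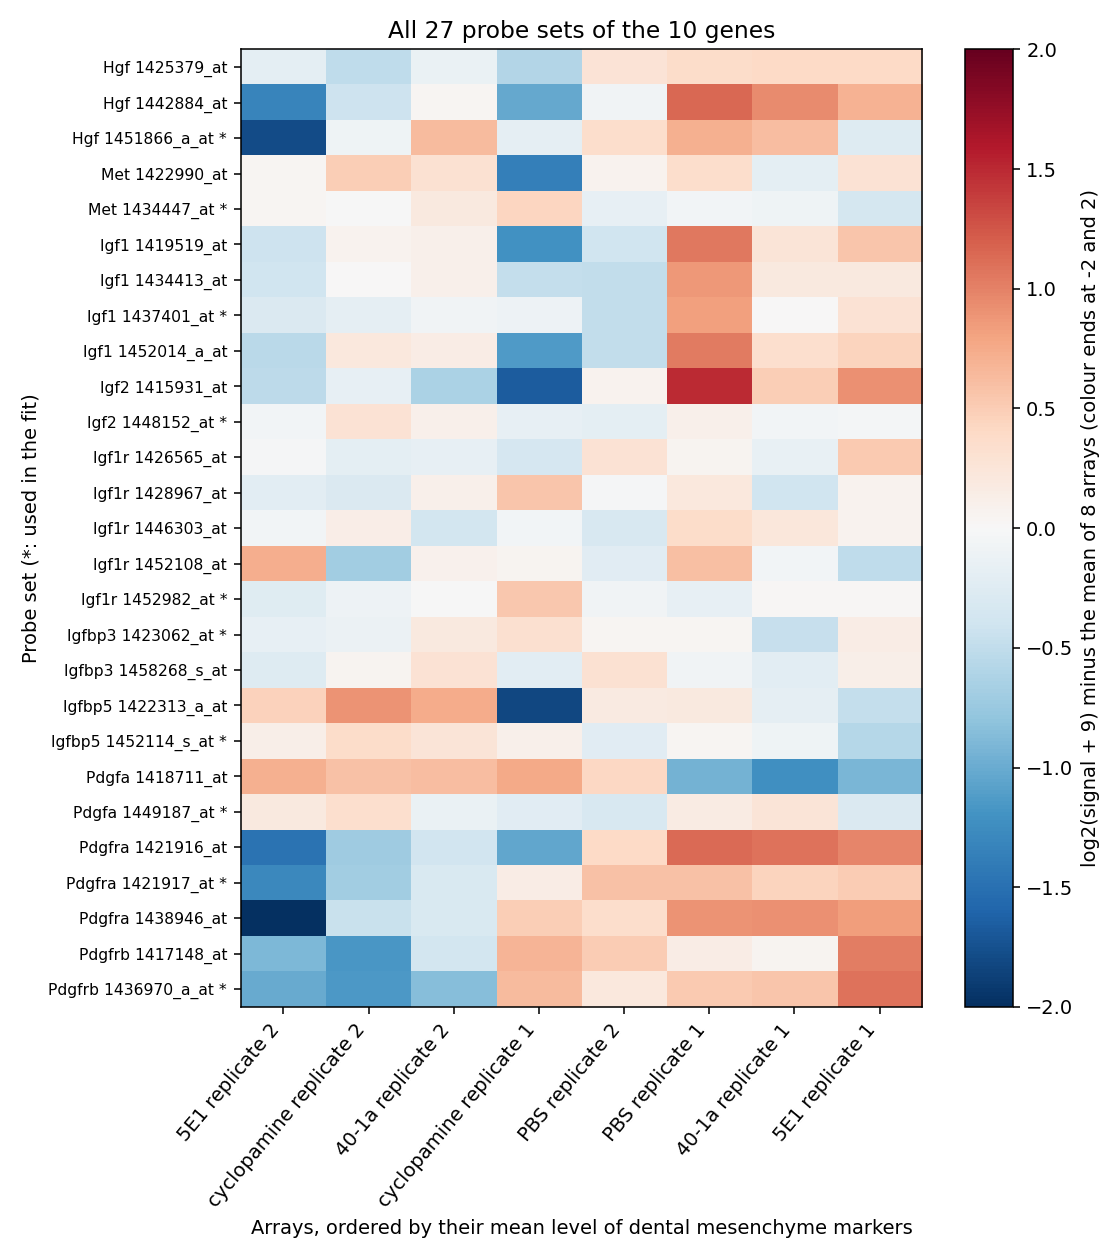
All 27 probe sets of the 10 genes (rows, with a star for those used in the fit) on the 8 arrays, ordered from left to right by their mean level of dental mesenchyme markers; the colour is log2(signal + 9) minus the mean of the 8 arrays, and values beyond -2 or 2 have the end colours. The Pdgfra and Pdgfrb rows are blue on the 3 arrays at the left and mostly red on the others, and Pdgfa 1418711_at turns the other way only for the 3 arrays on the right.

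Over all probe sets the split between arrays was larger than the split between injections. Of the 26 member probe sets above the filter level, 11 were lower and 4 higher in cluster 2 than in cluster 1 without overlap, where 23.8% and 21.1% of all single-gene probe sets were. The 11 were all 3 of Pdgfra, both of Pdgfrb, all 4 of Igf1, 1 of Igf2 and 1 of Hgf. Because the clusters were formed from these arrays, this is a description. Between 5E1 and 40-1a, 1 of the 26 was higher and 1 lower without overlap, where 9.35% and 11.2% of all were. Between cyclopamine and PBS 3 were higher and 6 lower, where 14.7% and 17.7% were. Against PBS, 0 were higher and 2 lower after 5E1 (all probe sets 10.5% and 12%), and 1 was higher and 3 lower after 40-1a (10.4% and 10.7%). With both blockers against both controls 0 were higher and 1, of Hgf, was lower (0.572% and 0.992%).

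The patterns of the members over the 8 arrays were also set beside those of all other genes, each gene scaled to a mean of 0 and an SD of 1. Pdgfra and Pdgfrb were the closest pair of members, with a root mean square difference of 0.476 SD. Nearest to Pdgfra were Cdkn2c (0.0713 SD), Gem (0.157 SD) and Gypc (0.163 SD), and nearest to Pdgfrb were Pear1 (0.109 SD), Cpt1a (0.150 SD) and Wipi1 (0.151 SD). Hgf lay nearest to Hapln3 (0.237 SD), Adssl1 (0.256 SD) and Elavl3 (0.262 SD), and its closest member was Pdgfra (0.694 SD). The nearest to Met were Nsd1 (0.166 SD), Znhit1 (0.267 SD) and Rassf10 (0.285 SD). For the IGF genes they were Ctla2a (0.255 SD), Ecrg4 (0.258 SD) and Fam111a (0.317 SD) beside Igf1, Ephx3 (0.244 SD), Klhl41 (0.329 SD) and Col20a1 (0.336 SD) beside Igf2, and Mast2 (0.238 SD), Znrf1 (0.240 SD) and Cdc25c (0.252 SD) beside Igf1r. Beside Igfbp3 they were Dennd4c (0.287 SD), Thada (0.371 SD) and Nle1 (0.373 SD), and beside Igfbp5 Dstn (0.253 SD), Lrrc26 (0.264 SD) and Tmprss13 (0.264 SD). Pdgfa had no gene nearer than 8030474K03Rik (0.378 SD), Usp3 (0.378 SD) and Grpel2 (0.386 SD). The smallest distance of all, that of Pdgfra to Cdkn2c, thus belonged to a member that followed the split of the arrays.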

How the data were processed

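The authors deposited 1 linear intensity per probe set and array, computed with MAS5, per the submitters' processing notes. Its version and scaling target are not given in the labels used here, and the mean after trimming 2% at each end was 500 on every array. Of 45101 probe sets, 34945 had 1 gene in GEO's platform annotation, 932 several and 9160 none, and 64 were controls. Values were taken as log2(signal + 9). Where a gene had several probe sets, that with the highest mean represented it in the fit, and all are given. Of 18193 genes, the 13008 above the 40th percentile of probe sets (signal 60.3) were fitted with limma 3.58.1 in R 4.3.3 (4 group means over 8 arrays, 4 residual degrees of freedom, eBayes with trend) and adjusted by Benjamini-Hochberg at 0.05. The fit was also run on simulated data with independent noise of the same size for every gene and no split of the arrays. That run cannot show how the fit performs on arrays split as these are. The number of arrays limits the precision.

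The members, the gene and marker lists, the rule for named genes and the alternatives were chosen with earlier results of these data known. The scale relative to mesenchyme markers was added after the values were seen. Named are all members, the highest and lowest gene of each pathway list in both main comparisons, the 3 genes nearest to each member, and Ptch1 and Gli1 as the check of the injections. St14, Spint2, Msx1, Krt14, Rgs5, Abcc9, Kcnj8, Notch3 and Anpep were named after their values were seen. Marker lists not given with values above (suprabasal oral epithelium, cartilage and bone, neuron and Schwann cell, erythroid cell) had 13 of 14, 2 of 8, 5 of 5 and 0 of 5 genes higher in cluster 2 than in cluster 1. Promoter sequences are RefSeq's, build GRCm38.p6.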

Additional observations from a re-analysis of the deposited data

How the results depend on the processing

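Limma called 0 genes in each of the 6 comparisons, and the count stayed 0 with median centring or quantile normalisation, pseudocounts of 1 and 50, no filter or one at the 60th percentile, both other settings of eBayes, array weights, the 3 other ways of choosing probe sets, the compared groups alone (4 comparisons) and each of 8 arrays left out, from 0 to 0. Those last fits leave a group with 1 array, assumed to vary like the others. The replicate number as a block gave 1 gene, Ptch1, for 5E1 minus 40-1a, for 5E1 minus PBS and for both blockers. The deviations of same-numbered arrays correlated across genes at 0.591 for 5E1 and 40-1a, at 0.323 to 0.41 for 4 other pairs of groups and at 0.00157 for cyclopamine and PBS, and no label names a pairing. The array cluster as a block gave 3 genes for 5E1 minus 40-1a (Gli1, Ptch1, Sostdc1), 2 for 5E1 minus PBS and 2 for both blockers (Gli1, Ptch1 in each), and 3 for the antibody effect minus the cyclopamine effect (Fos, Gli1, Ptch1). None of these is a member. The clusters were formed from the same signals, so the SEs and adjusted p of the fits with this block may be too small. The calls with the cluster as a block are therefore a description. Of 1414 alternative values of the members, 92 moved by more than the spread between replicates. Many of these values could not move by design. The filters, the eBayes settings, the replicate block and the compared groups alone leave a member's difference unchanged. The same holds where the array left out is of a group outside the comparison, so the share moved is no measure of stability. Hgf stayed negative in every alternative that gave a value, over -1.86 to -0.83 for 5E1 minus 40-1a, -0.93 to -0.23 for cyclopamine minus PBS and -1.29 to -0.78 for both blockers, and with 1 array left out over -2.42 to -0.88, -0.84 to -0.49 and -1.54 to -0.77. The filter at the 60th percentile removed Hgf. With the mean of probe sets the sign turned for Igf1 (-0.15), Igf2 (0.09), Igf1r (0.11) and Pdgfa (0.05) in 5E1 minus 40-1a, and for Met (-0.16), Igf2 (-0.80), Igf1r (-0.11), Igfbp3 (-0.07) and Igfbp5 (-0.16) in cyclopamine minus PBS. The cause was not tested. For Hgf the signal over background limits the precision, since 5E1 replicate 2 lay under the filter level.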
